A study of Mus musculus with 14 samples.

Results

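The heat shock and chaperone panel described here holds 10 genes: Hspa1a, Hspa1b, Hspa8, Hsph1, Dnajb1, Bag3, Hsp90aa1, Hspb1, Hspb7 and Cryab. They were chosen by gene symbol, and all 10 were found among the 49585 genes of both deposited expression tables. None of the 10 passed the test between genotypes or between injured and uninjured muscle. Hspb7, a small heat shock protein of heart and skeletal muscle, had the largest genotype estimate, with a mean 2.83 times that of wild-type muscle in uninjured and 2.80 times in injured muscle lacking Myf6, carried by 2 of the 3 knockout animals. Hspa8, the constitutive HSP70 of the cytosol, lay at 0.666 and 0.651 times the wild-type mean and was below every wild-type library in all knockout libraries, without passing the test.

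Chaperones hold unfolded proteins in solution, refold them or hand them on for degradation. HSP70 proteins cycle on and off their clients under the control of J-domain proteins and nucleotide exchange factors, HSP90 acts on clients that are already partly folded, and small heat shock proteins form oligomers that keep unfolding proteins from aggregating. In striated muscle this network tends the sarcomere and the cytoskeleton, and heat shock factors raise the transcription of its inducible members under stress.

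RNA-seq of mouse hind limb skeletal muscle covered 4 groups of 3 libraries: wild-type (WT) without injury, Myf6 knockout (KO) without injury, WT with injury and KO with injury. Myf6 encodes a muscle regulatory factor of the MyoD family. The knockout allele, the strain, sex and age of the mice, what injury was made and how long before sampling are not given in the sources used here. Each library carries an animal number and the letter L or R, read here as the 2 legs of 1 animal, so the uninjured and the injured comparison of genotypes use the same 3 WT and 3 KO animals. All uninjured libraries are L and all injured ones R, so leg side cannot be told apart from injury. WT and KO animals are different animals, and a litter or batch effect cannot be told apart from genotype. A further ChIP-seq library of Flag-tagged Myf6, with 1 control, came from primary myotubes and not from this tissue. In whole muscle, fewer cells of a type and less RNA per cell cannot be told apart.

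Levels are given in RPM, a gene's reads relative to all reads assigned to genes in that library, which is not corrected for gene length, so they are compared between libraries and not between genes. The libraries held 1880087 to 49392472 reads. The shallowest was WT uninjured replicate 2, where 3 reads correspond to 1.60 RPM, against 0.0607 to 0.236 RPM elsewhere, counting error only. Myf6 itself was at 25.0 to 121 RPM in the WT and 1.86 to 3.46 RPM in the KO libraries, and the fast-fibre genes summed to 164033 RPM or more in every library, as the labels for genotype and tissue state. KO replicate 2 stood apart from the other KO animals in both legs: mitochondrial transcripts took 15.3% of its uninjured and 23.2% of its injured reads, against 3.63% to 6.76% in the other 4 KO libraries. The WT libraries ranged from 8.35% to 22.3%. Changes are differences of log2(RPM + 1) from limma with Benjamini-Hochberg adjusted p-values and a threshold of 0.05. On this scale the change of a gene at low levels is understated.

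In uninjured muscle 0 of the 10 genes passed the limma test of KO against WT, where 0.281% of all 12460 genes tested passed (16 higher and 19 lower in KO). Hspb7 (higher) and Hspa8 (lower) had an unadjusted p below 0.05, as did 14.2% of all genes. edgeR on the recovered reads also passed none of the 10, and the authors' deposited table passed 1 of 10, Hspb7, where 1.43% of its genes with a value have a q-value under 0.05. The 10 estimates split into 5 higher and 5 lower, with a median of 0.00 against -0.18 over all genes tested. In injured muscle 0 of 10 passed, where 0.269% of 12625 genes did, and Hspa8 alone was under an unadjusted 0.05, where 10.3% of all genes were. There edgeR also passed none, and so did the authors' deposited table, where 0.893% of genes have a q-value under 0.05. Here 5 estimates were higher and 5 lower, and the median was -0.08 against 0.01 over all genes. The injured split was 3 higher and 7 lower with upper quartile scaling, scaling outside mitochondrial genes and edgeR, and 1 higher and 9 lower without WT injured replicate 2. The uninjured split was 5 and 5 under each of these scalings. The uninjured median of all genes depends on the scaling, from -0.32 when scaled to reads outside mitochondrial genes to 0.00 with edgeR, and with the former 31 of 199 genes that passed were higher in KO. It also depends on single libraries, from -0.33 without KO uninjured replicate 3 to 0.00 without KO uninjured replicate 2. Values given relative to the median gene shift with it.

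**Figure D1:**
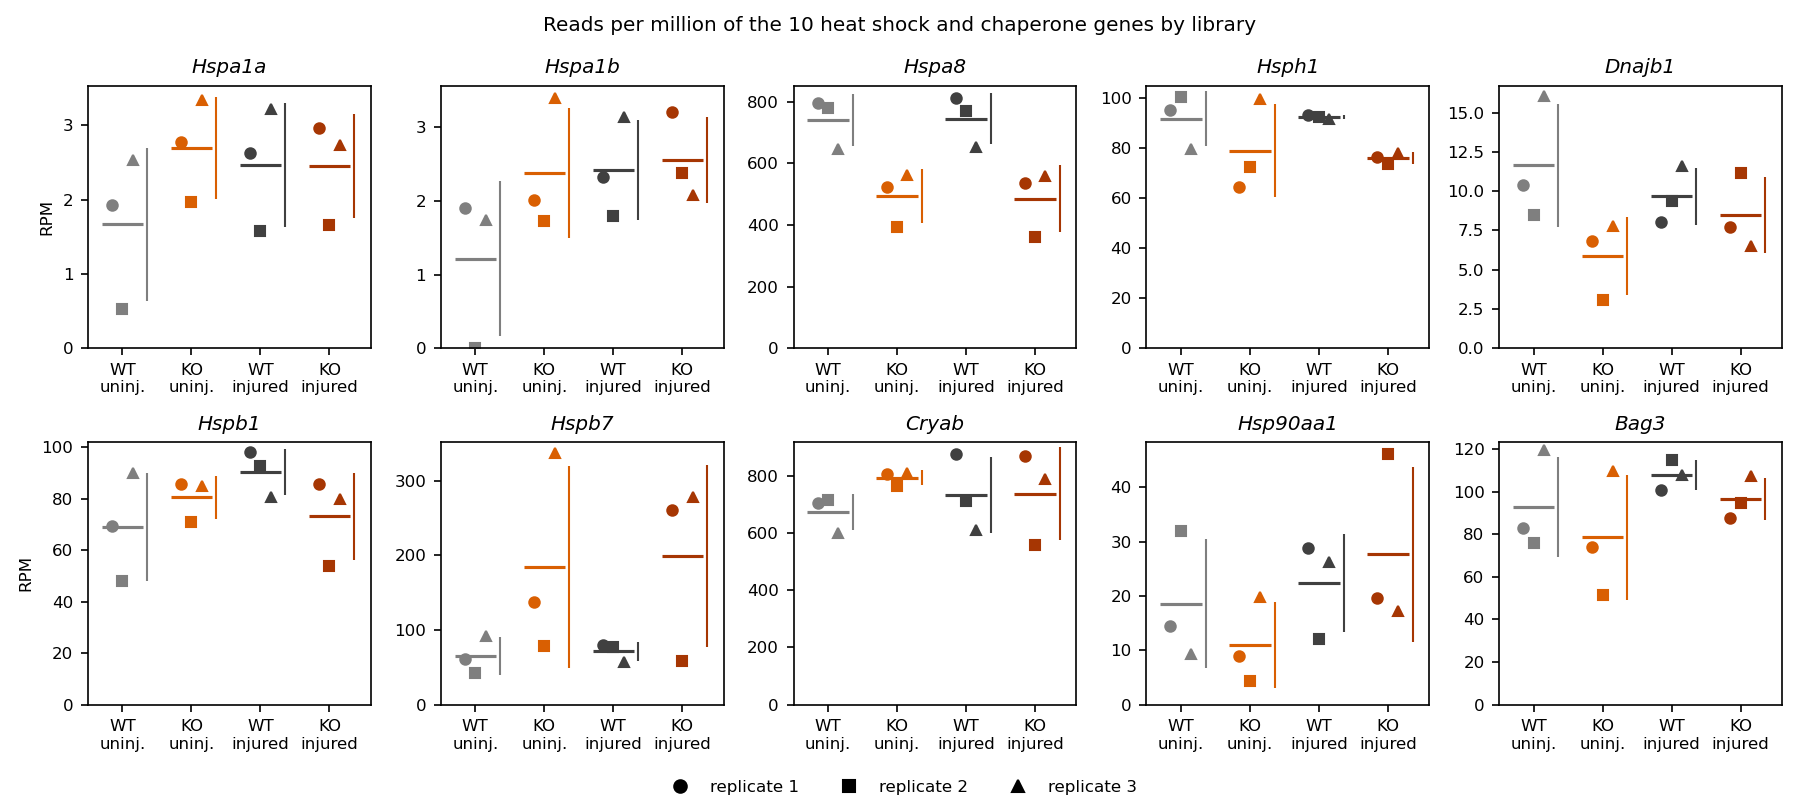
Levels of the 10 genes in RPM (vertical axes, each from 0) in the 4 groups, with 1 point per library, the group mean as a horizontal line and 1 SD to either side as a vertical line. The KO points of Hspa8 all lie below the WT points in both legs, while the KO points of Hspb7 spread from within the WT range to 337 RPM.

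Hspa8 (ENSMUSG00000015656.17) encodes HSC70, which folds new proteins and strips clathrin coats in unstressed cells. Its levels were 797, 781 and 646 RPM in WT uninjured replicates 1 to 3 and 524, 394 and 561 RPM in KO uninjured replicates 1 to 3. In the injured legs the same animals gave 813, 771 and 653 RPM for WT and 536, 361 and 559.5 RPM for KO. All KO libraries lay below all WT libraries in both legs, and the lowest KO animal was replicate 2 both times. Groups that do not overlap, in either direction, occurred for 21.7% of all genes in the uninjured and 16.9% in the injured comparison, so this separation is not rare among the genes tested. The estimate was -0.60 (SE 0.25, 95% interval -1.16 to -0.03, adjusted p = 0.321) uninjured, which is -0.42 relative to the median gene, and -0.64 (SE 0.23, -1.18 to -0.09, adjusted p = 0.418) injured. Neither passed. In the authors' deposited table the KO over WT values were -0.41 (q = 0.986) and -0.60 (q = 0.994).

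Hspa8 was also the steadiest of the panel between the legs of 1 animal. The injured minus uninjured difference lay between -0.13 and 0.03 on the log2 scale in the 6 animals, and both WT and KO animals kept their order from 1 leg to the other. Leaving out KO replicate 2 gave -0.44 uninjured (adjusted p = 0.424) and -0.44 injured (adjusted p = 0.0833). The nuclear RNA Malat1 was at 213 to 284 RPM in WT and 81.1 to 106 RPM in KO uninjured libraries. In the injured legs it was at 264, 494 and 249.2 RPM in WT and 80.4, 288 and 73.4 RPM in KO replicates 1 to 3, so these groups overlapped, and KO replicate 2, the library with the lowest Hspa8, was within the WT range. The uninjured sums of 6 macrophage markers overlapped narrowly, at 70.2 to 130 RPM in WT and 39.6 to 70.6 RPM in KO. Their injured sums did not overlap, at 89.1 to 117 RPM in WT and 77.1 to 81.9 RPM in KO. Both limma and edgeR passed 0 of the 6 in either leg. Under an unadjusted 0.05, limma had 2 of them lower uninjured and 1 injured, and edgeR had 1 in each leg. None of those 6 markers was at 0 in all libraries. The part of these measures in the Hspa8 difference was not tested. Scaled to reads outside mitochondrial genes, the uninjured Hspa8 estimate was -0.75 (adjusted p = 0.133).

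Hspa1a (ENSMUSG00000091971.3) and Hspa1b (ENSMUSG00000090877.3) encode the stress-inducible HSP70 and lie next to each other on chromosome 17. The 250 bases before their start sites are shown as the near-identical upstream sequence of neighbouring genes. How reads that match both genes were treated is not given in the sources used here. The stretches (RefSeq, GRCm38.p6) are chr17:34972157-34972406, minus strand, and chr17:34959239-34959488, minus strand. Capitals mark GAANNTTC, the core of the heat shock element, searched on both strands.
Hspa1a: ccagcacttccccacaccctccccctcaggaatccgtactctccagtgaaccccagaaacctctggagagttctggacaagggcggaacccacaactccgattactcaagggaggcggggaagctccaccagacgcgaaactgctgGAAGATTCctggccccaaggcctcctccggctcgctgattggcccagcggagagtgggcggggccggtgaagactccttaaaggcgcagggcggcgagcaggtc
Hspa1b: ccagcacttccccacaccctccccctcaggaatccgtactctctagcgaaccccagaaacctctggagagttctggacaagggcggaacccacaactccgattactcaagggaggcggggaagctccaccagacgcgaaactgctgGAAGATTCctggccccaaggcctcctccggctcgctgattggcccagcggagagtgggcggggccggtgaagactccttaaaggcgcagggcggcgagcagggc
The sequences are identical at 247 of 250 positions (98.8%). Counted from 1 at the 5′ end of the printed stretch, with the Hspa1a base first, they differ by C44T, T47C and T249G. Both hold GAAGATTC at the same place, 104 bases before the start site. GAANNTTC is present in 7.86% of 32851 RefSeq promoter windows of 300 bases, and a match is a description, not a site or a cause.

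Both genes were at low levels, with 22 or more reads in every library but WT uninjured replicate 2. Hspa1a was at 1.93, 0.532 and 2.54 RPM in WT uninjured replicates 1 to 3 and 2.78, 1.97 and 3.34 RPM in KO. Its injured levels were 2.63, 1.57 and 3.21 RPM in WT and 2.97, 1.66 and 2.73 RPM in KO. The low WT value is 1 read in the shallowest library, below its 3-read floor, and the other groups overlap throughout. Hspa1b was at 1.90, 0 and 1.75 RPM in WT and 2.02, 1.73 and 3.39 RPM in KO uninjured replicates, and at 2.33, 1.80 and 3.14 RPM in WT and 3.21, 2.38 and 2.09 RPM in KO injured replicates. The 0 is again WT uninjured replicate 2, where it allows up to 1.60 RPM. Estimates for KO against WT were 0.54 (SE 0.43, adjusted p = 0.614) and 0.73 (SE 0.49, adjusted p = 0.546) uninjured, and 0.18 and 0.23 without WT uninjured replicate 2. In injured muscle they were 0.00 (SE 0.27) and 0.06 (SE 0.24). With the 2 rows added together, a choice made after seeing the data, the estimate was 0.81 (SE 0.52, adjusted p = 0.523) uninjured and 0.05 (SE 0.26, adjusted p = 0.971) injured. The summed estimate for injury was 0.76 (SE 0.44) in WT and 0.00 (SE 0.44) in KO muscle, and neither passed. The summed level stayed between 3.37 and 6.73 RPM in all libraries but the shallowest.

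Dnajb1 (ENSMUSG00000005483.10), the J-domain partner that delivers clients to the cytosolic HSP70s, was at 10.4, 8.51 and 16.0 RPM in WT and 6.81, 3.07 and 7.76 RPM in KO uninjured replicates. The KO libraries all lay below the WT libraries, though KO replicate 3 and WT replicate 2 were close. The estimate was -0.91 (SE 0.42, 95% interval -1.85 to 0.03, adjusted p = 0.367), or -0.73 relative to the median gene, and -0.57 without KO uninjured replicate 2. In injured muscle the replicates were at 8.03, 9.40 and 11.6 RPM in WT and 7.74, 11.2 and 6.50 RPM in KO, and the groups overlapped. The injured estimate was -0.19 (SE 0.24, adjusted p = 0.833), and -0.036 without KO injured replicate 3. The change of the genotype difference with injury was 0.72 (SE 0.50, adjusted p = 0.9999), so the 2 legs were not shown to differ.

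Hsph1 (ENSMUSG00000029657.15) encodes HSP110, a nucleotide exchange factor of HSP70 that also takes part in dissolving aggregates. It was at 95.3, 100.5 and 79.5 RPM in WT and 64.6, 72.5 and 99.8 RPM in KO uninjured replicates, which overlap. In injured muscle both groups were tight, with 93.3, 92.4 and 91.6 RPM in WT and 76.5, 73.6 and 78.2 RPM in KO. All injured KO libraries lay below all injured WT libraries. The estimates were -0.23 (SE 0.27, adjusted p = 0.744) uninjured and -0.28 (SE 0.14, 95% interval -0.62 to 0.06, adjusted p = 0.559) injured. Neither passed, and the injured KO mean was 0.823 times the WT mean.

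Bag3 (ENSMUSG00000030847.8) links HSP70 to the small heat shock proteins and to selective autophagy of damaged sarcomere proteins at the Z-disc. Its levels were 83.0, 76.1 and 119.6 RPM in WT and 74.2, 51.6 and 109.6 RPM in KO uninjured replicates. Injured replicates gave 101, 115 and 108 RPM in WT and 87.7, 94.4 and 107 RPM in KO. The groups overlapped in both legs. The estimates were -0.28 (SE 0.33, adjusted p = 0.755) and -0.16 (SE 0.16, adjusted p = 0.774).

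Hsp90aa1 (ENSMUSG00000021270.13), the stress-responsive HSP90 of the cytosol, ranged from 4.41 to 46.1 RPM over the 12 libraries, with wide spread inside each group. It was at 14.5, 31.9 and 9.22 RPM in WT and 8.86, 4.41 and 19.7 RPM in KO uninjured replicates. Injured replicates were at 28.7, 12.1 and 26.3 RPM in WT and 19.5, 46.1 and 17.2 RPM in KO. Neither leg separated the genotypes. The estimates were -0.75 (SE 0.57, adjusted p = 0.599) uninjured and 0.24 (SE 0.46, adjusted p = 0.894) injured. The uninjured value was -0.28 without replicate 2 of either genotype and -1.25 without KO replicate 3. The injured value was -0.18 without KO injured replicate 2 and -0.13 without WT injured replicate 2. Reads shared with near-identical copies or with Hsp90ab1 could shift this row, since their handling is not given in the sources used here.

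Hspb7 (ENSMUSG00000006221.7) was the one member with a large genotype estimate in both legs. The 250 bases before its start site (RefSeq, GRCm38.p6, chr4:141420529-141420778, plus strand) and those of Hspb1 (chr5:135887669-135887918, plus strand) are shown side by side because both encode small heat shock proteins, and a heat shock element core is found in only 1 of the windows. Capitals mark GAANNTTC in Hspb1 and the E-box CANNTG, the motif class bound by MyoD family factors, in Hspb7. Hspb1 also holds CANNTG, left in lower case, at 138 and 109 bases before its start.
Hspb1: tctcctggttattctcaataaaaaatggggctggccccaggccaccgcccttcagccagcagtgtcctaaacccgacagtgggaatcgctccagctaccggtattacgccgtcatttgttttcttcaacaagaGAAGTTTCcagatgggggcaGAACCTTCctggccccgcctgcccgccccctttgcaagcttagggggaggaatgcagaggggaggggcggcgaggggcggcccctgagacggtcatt
Hspb7: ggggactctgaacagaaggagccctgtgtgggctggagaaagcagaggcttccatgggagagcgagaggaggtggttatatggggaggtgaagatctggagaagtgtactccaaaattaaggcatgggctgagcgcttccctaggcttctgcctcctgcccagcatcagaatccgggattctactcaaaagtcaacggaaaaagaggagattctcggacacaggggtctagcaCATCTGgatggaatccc
Hspb1 holds GAANNTTC at 117 and 97 bases before its start. Hspb7 holds neither GAANNTTC nor TTCNNGAA in its 300-base window and has 1 CANNTG, 17 bases before the start. CANNTG occurs in 72.3% of all promoter windows, so its presence in both is ordinary.

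Hspb7 was at 61.1, 42.6 and 92.0 RPM in WT and 137, 78.9 and 337 RPM in KO uninjured replicates. Injured replicates gave 79.2, 77.8 and 56.5 RPM in WT and 261, 58.3 and 278 RPM in KO. KO replicates 1 and 3 lay above every WT library in both legs, and KO replicate 2 lay within the WT range in both. The means were 65.2 ± 25.0 and 184 ± 135 RPM (SD, n = 3 each) uninjured, and 71.2 ± 12.7 and 199 ± 122 RPM injured. The estimate was 1.30 (SE 0.51, 95% interval 0.16 to 2.44, adjusted p = 0.289) uninjured, which is 1.48 relative to the median gene, and 1.19 (SE 0.58, -0.19 to 2.57, adjusted p = 0.545) injured. Neither passed. The authors' deposited table gives a KO over WT log2 value of 1.60 (SE 0.397, q = 0.0128) uninjured, which is under 0.05, and 1.51 (SE 0.540, q = 0.422) injured. Over 14 alternatives the uninjured estimate ranged from 0.74, without KO uninjured replicate 3, to 1.78, without KO uninjured replicate 2, and stayed above 0. Without KO injured replicate 2 the injured estimate was 1.92 (adjusted p = 0.00344), which passed. In that fit 2343 of all 12312 genes tested passed. The lone Hspb7 call in the injured leg thus turns on 1 library.

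Among the KO animals, genes of slow fibres were lowest where Hspb7 was lowest. Summed over 10 slow-fibre genes such as Myh7 and Tnnc1, the level was 1477, 1400 and 1875 RPM in WT and 4182, 1892 and 4037 RPM in KO uninjured replicates. The injured sums were 971, 403 and 1590 RPM in WT and 6592, 1846 and 4026 RPM in KO. KO replicate 2, whose Hspb7 lay within the WT range, had the lowest slow-fibre sum of the KO animals in both legs, though still above all WT libraries of the same leg. KO replicate 1 had a higher sum than KO replicate 3 in both legs, but less Hspb7. In uninjured WT muscle both followed the same order, while in injured WT muscle Hspb7 was lowest in replicate 3, where the sum was highest. No slow-fibre gene was at 0 in all libraries, and of the 10, limma passed 0 in either leg, with 6 uninjured and 7 injured under an unadjusted 0.05, all higher in KO. edgeR passed 1 uninjured and 0 injured. The 11 fast-fibre genes also summed higher in KO uninjured libraries, at 193452 to 261070 RPM against 164276 to 187381 RPM in WT, highest in KO replicate 2. Their injured sums overlapped, at 167717 to 207805 RPM in WT and 164033 to 196032 RPM in KO. Of the 11, limma passed 0 in either leg, with 1 uninjured, higher in KO, and 0 injured under an unadjusted 0.05. The 6 adipocyte markers summed to 1199 to 2008 RPM in WT and 1701 to 3187 RPM in KO uninjured libraries, highest in KO replicate 1. Their injured sums did not overlap, at 383 to 1314 RPM in WT and 1377 to 2992 RPM in KO. Of the 6, limma passed 0 in either leg, with 4 uninjured and 3 injured under an unadjusted 0.05, all higher in KO. For these markers edgeR passed 1 uninjured and 0 injured. The part of fibre type or of fat in the Hspb7 difference was not tested.

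**Figure D2:**
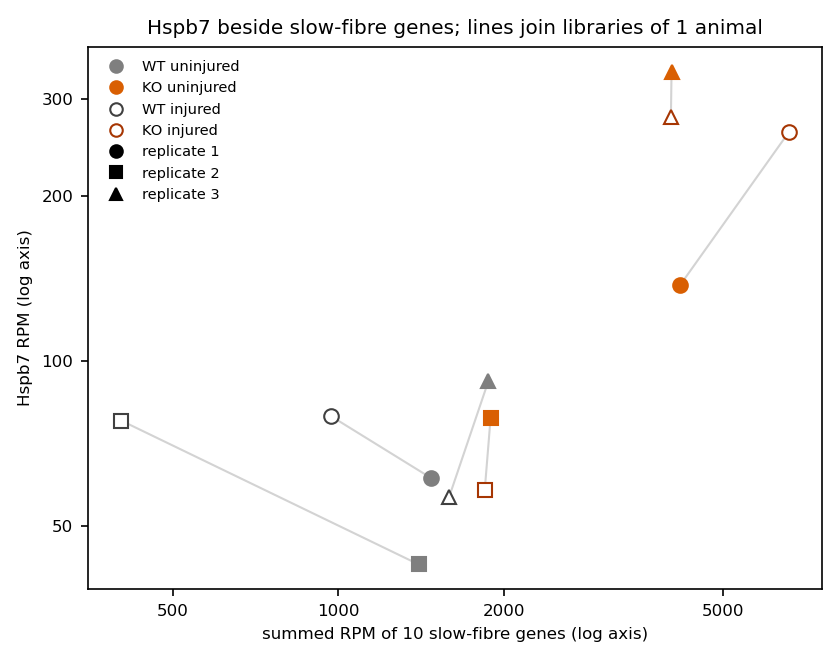
Hspb7 in RPM (vertical log axis) against the summed RPM of 10 slow-fibre genes (horizontal log axis) in the 12 libraries; filled symbols are uninjured, open symbols injured, and grey lines join the legs of 1 animal. The 4 libraries of KO replicates 1 and 3 stand at the upper right, at 137 to 337 RPM of Hspb7, and both KO replicate 2 libraries lie close to the WT libraries at 58.3 and 78.9 RPM.

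The other 2 small heat shock proteins showed no such spread. Hspb1 (ENSMUSG00000004951.10), which protects actin filaments, was at 69.3, 47.9 and 90.0 RPM in WT and 85.9, 71.0 and 85.0 RPM in KO uninjured replicates. In injured muscle it was at 98.2, 92.7 and 80.8 RPM in WT and 85.9, 54.0 and 79.8 RPM in KO. The uninjured groups overlapped, and so did the injured ones. The estimates were 0.26 (SE 0.29, adjusted p = 0.735) and -0.33 (SE 0.22, adjusted p = 0.650).

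Cryab (ENSMUSG00000032060.10) encodes αB-crystallin, which shields desmin and titin in muscle. It was at 706, 715 and 601 RPM in WT and 807, 765 and 811 RPM in KO uninjured replicates. All uninjured KO libraries lay above all WT ones, by 1.18-fold in the mean. In injured muscle the levels were 878, 712 and 613 RPM in WT and 871, 558 and 789 RPM in KO, with full overlap. The estimates were 0.24 (SE 0.23, 95% interval -0.27 to 0.75, adjusted p = 0.680) and 0.00 (SE 0.25, adjusted p = 0.9997). In these limma fits, Cryab differences above 0.753 or below -0.583 on the log2 scale thus lie outside both intervals. These limits hold for this scaling only. The authors' deposited table gives KO over WT values of 0.45 (SE 0.302) uninjured and 0.03 (SE 0.293) injured.

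**Figure D3:**
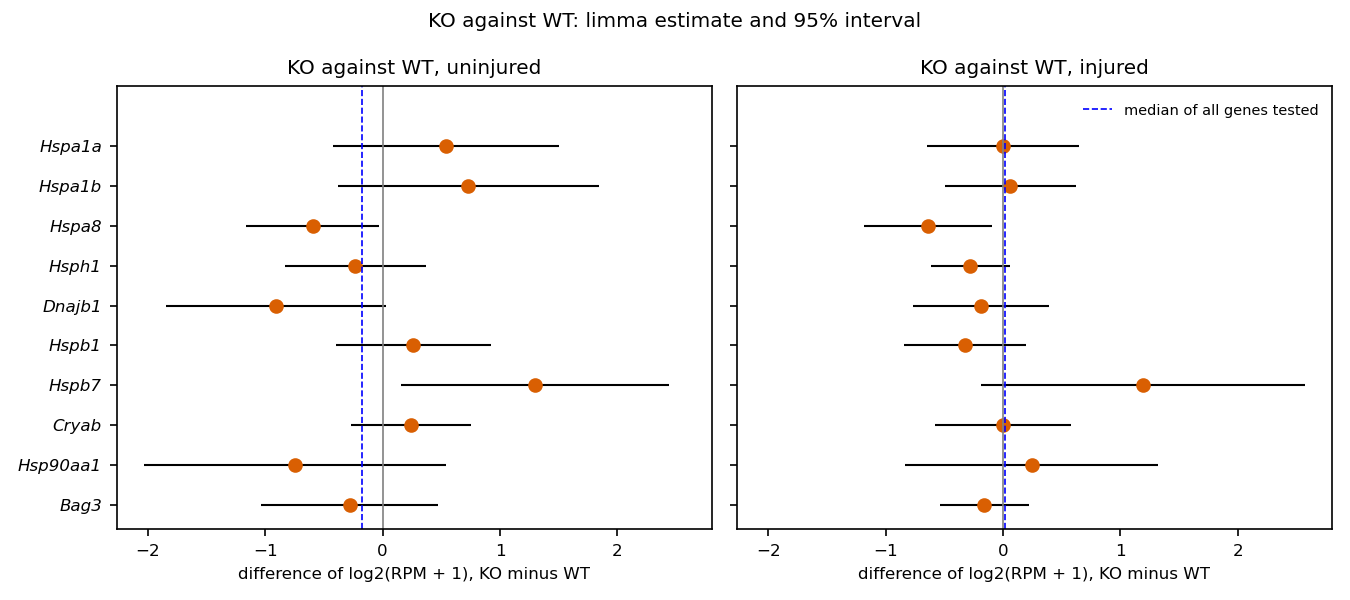
Difference of log2(RPM + 1), KO minus WT (horizontal axis), for the 10 genes in uninjured (left) and injured muscle (right), with the limma estimate as a point and its 95% interval as a line; the dashed line is the median of all genes tested, at -0.18 and 0.01. Hspb7 lies farthest to the right in both panels, at 1.30 and 1.19, and the Hspa8 interval stays below 0 in both before adjustment over all genes.

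Counted over the panel, groups that did not overlap occurred for 3 of 10 genes in uninjured muscle, 1 higher in KO (Cryab) and 2 lower (Hspa8 and Dnajb1). The shares over all genes were 6.2% higher and 15.5% lower. In injured muscle they occurred for 2 of 10, both lower in KO (Hspa8 and Hsph1), against 8.29% higher and 8.63% lower over all genes.

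No member passed the test of injury in either genotype, though intervals were wide, as for Hspb7 in WT muscle (-1.10 to 1.45). In WT muscle 0 of 10 genes passed the limma test of injured against uninjured legs, where 0% of all 13337 genes passed, and none was under an unadjusted 0.05, where 1.29% of all genes were. The estimates were 9 higher and 1 lower, with a median of 0.21 against 0.09 over all genes, and the split was 7 to 3 when scaled by upper quartile, outside mitochondrial genes or by edgeR. No member separated the WT legs, which 10% of all genes did. In KO muscle 0 of 10 passed, where 0% of all genes did, with 5 estimates higher and 5 lower and a median of 0.02 against 0.29 over all genes. That split was 3 to 7 with upper quartile scaling and edgeR, 7 to 3 scaled outside mitochondrial genes and 9 to 1 without KO injured replicate 2. The KO median over all genes was 0.10 without KO uninjured replicate 2 and 0.43 without KO uninjured replicate 3. Only Hsp90aa1 was under an unadjusted 0.05, where 3.51% of all genes were. This fit has no term for animal. With limma and a block on animal, 0 members were under an unadjusted 0.05, where 889 of the 13337 genes were. No member separated the KO legs, which 6.74% of all genes did. edgeR passed none of the 10 in either genotype, and none was under an unadjusted 0.05 with it.

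Hsp90aa1 had the largest injury estimate, 1.33 (SE 0.56, 95% interval 0.12 to 2.54, adjusted p = 0.728) in KO muscle, or 1.04 relative to the median gene, with an injured mean of 27.6 ± 16.1 RPM (SD, n = 3), 2.51 times the uninjured mean. By animal the KO difference was 1.06, 3.12 and -0.19 in replicates 1 to 3, and the WT difference was 0.94, -1.33 and 1.42. So 2 of 3 animals of each genotype were higher in the injured leg, and KO replicate 2 accounts for most of the KO mean. Dnajb1 and Bag3 showed their largest KO difference in the same animal, at 1.58 and 0.86. That animal also had the largest mitochondrial share in its injured leg, and its part in these differences was not tested. The genotype by injury interaction passed for 0 of 10 genes, where 0% of all genes passed, with every member at an adjusted p of 0.9999 in limma. None was under an unadjusted 0.05, where 1.56% of all genes were. edgeR passed none and had 1 member under an unadjusted 0.05, with a negative estimate. With edgeR 1.05% of all genes were under it with a positive and 0.802% with a negative estimate. No member had all WT animals on 1 side of 0 and all KO animals on the other.

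**Figure D4:**
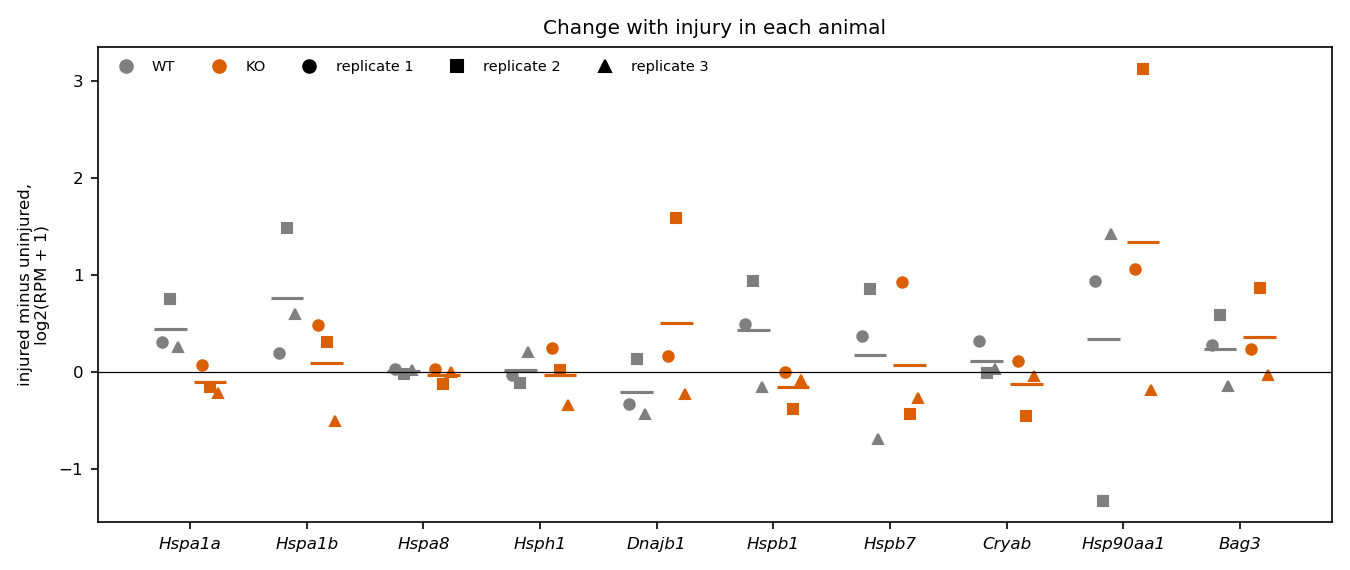
Injured minus uninjured difference of log2(RPM + 1) (vertical axis) in each of the 6 animals for the 10 genes, WT in grey and KO in orange, with the mean of 3 animals as a line. The Hspa8 points all lie between -0.13 and 0.03, while those of Hsp90aa1 spread from -1.33 to 3.12.

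A wider view came from 7 further chaperone lists, 94 genes in all: HSP70 partners, HSP90 cochaperones, small heat shock proteins, the TRiC complex, mitochondrial chaperones, chaperones of the endoplasmic reticulum and heat shock factors. Of the 94, 88 were tested, and limma passed 0 of 88 in each of the comparisons, as did edgeR. In uninjured muscle limma had 2 higher and 6 lower in KO under an unadjusted 0.05, where 3.53% and 10.7% of all genes were, while edgeR had 11 higher and 2 lower, where 8.64% and 7.84% of all genes were. The balance of directions in these lists thus differs between the tools, which scale the libraries differently. In injured muscle both tools had 0 higher and 3 lower, where limma had 5.06% and 5.26% of all genes and edgeR 5.20% and 4.93%. The median estimate of the 88 was -0.01 uninjured against -0.18 over all genes, and 0.07 injured against 0.01.

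Among the heat shock factors, Hsf2 had the smallest adjusted p of the 88 genes in uninjured muscle, at means of 48.1 RPM in WT and 22.5 RPM in KO (-1.09, SE 0.28, adjusted p = 0.148), with every KO library below every WT library. Hsf1, the main activator of stress-induced chaperones, was at 28.1 and 43.8 RPM (0.63, SE 0.30, adjusted p = 0.378), with every KO library above. Neither passed. Uninjured groups did not overlap for 8 of the 88 genes higher and 8 lower in KO, where 6.2% and 15.5% of all genes did so. In injured muscle the groups overlapped for both Hsf2 and Hsf1. There the Hsf2 estimate was -0.62 (SE 0.29, adjusted p = 0.530) and Hsf4 had 0.39 (SE 0.23, adjusted p = 0.597).

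Of the HSP70 partners, Hspa12a, a distant HSP70 relative, had means of 17.1 RPM in WT and 7.85 RPM in KO uninjured muscle (adjusted p = 0.193). Dnajb2, a J-domain protein that directs clients to the proteasome, had 48.2 and 88.5 RPM (adjusted p = 0.196). In injured muscle Hspa2 and Dnajb2 had the smallest p of this list, with estimates of 0.55 (adjusted p = 0.523) and 0.40 (adjusted p = 0.559). The HSP90 cochaperones Ptges3 (p23) and Sugt1 had uninjured estimates of -0.71 (adjusted p = 0.304) and -0.66 (adjusted p = 0.316). In injured muscle Fkbp5, a cochaperone of steroid receptors, had 0.69 (adjusted p = 0.559) and Ppid -0.35 (adjusted p = 0.584).

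Among the small heat shock proteins, Hspb3 and Hspb8, the binding partner of Bag3, had the smallest p in injured muscle. Hspb3 had means of 62.2 RPM in WT and 38.3 RPM in KO (-0.71, SE 0.20, adjusted p = 0.327). Hspb8 had 781 and 525 RPM (-0.59, SE 0.20, adjusted p = 0.404). Both genes had KO libraries that did not reach the lowest WT library. Injured groups did not overlap for 1 of the 88 genes higher and 5 lower in KO, where 8.29% and 8.63% of all genes did so. The uninjured estimates of this list were led by Hspb2 at 0.42 (adjusted p = 0.503) and Hspb3 at -0.46 (adjusted p = 0.506). The TRiC subunits Cct8 and Cct4 had uninjured estimates of -0.45 (adjusted p = 0.440) and -0.46 (adjusted p = 0.561), and Cct8 and Cct6a injured estimates of -0.24 (adjusted p = 0.640) and -0.23 (adjusted p = 0.695).

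In the mitochondrion, the disaggregase Clpb had uninjured means of 44.5 RPM in WT and 80.4 RPM in KO (0.84, SE 0.24, adjusted p = 0.177), with every KO library above every WT library. Groups separated that way for 6.2% of all genes, and those of Clpb overlapped in injured muscle. Trap1, the mitochondrial HSP90, had 0.60 (adjusted p = 0.436). Injured estimates were 0.37 for the protease Lonp1 (adjusted p = 0.545) and 0.32 for Clpb (adjusted p = 0.647). In the endoplasmic reticulum, Hsp90b1 (GRP94) and the collagen chaperone Serpinh1 had uninjured estimates of -0.69 (adjusted p = 0.251) and -0.72 (adjusted p = 0.356). Serpinh1 had -0.55 (adjusted p = 0.415) and Hyou1 0.61 (adjusted p = 0.542) in injured muscle. The 6 fibroblast markers, whose cells make collagen, summed to 495 to 1413 RPM in WT and 381 to 939 RPM in KO uninjured libraries, and their part in the Serpinh1 values was not tested.

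The 10 genes did not vary as 1 block over the 12 libraries. As a description over libraries that share animals and legs, Pearson's r of log2(RPM + 1) was highest for Hspa1a with its copy Hspa1b (0.90, n = 12), followed by Hspa1a with Hspb1 (0.75), Dnajb1 with Bag3 (0.74) and Hspa8 with Hsph1 (0.73). Hspb7 and Cryab had 0.59. The lowest value was -0.62, for Dnajb1 with Cryab, and the median of all 45 pairs was 0.22. The non-member genes most like the mean standardized pattern of the panel, among 9165 with a mean of 5 RPM or more, were Gramd4 (r = 0.96), D5Ertd579e (0.96), Ino80 (0.95), Nr1d1 (0.94) and Trafd1 (0.94). For single members the closest gene was Rpl29 for Hspa8 (0.98), Oaz2 for Hspb7 (0.98), Zfp869 for Bag3 (0.96), Atp2c1 for Dnajb1 (0.95), Asb16 for Hspb1 (0.95), Slc26a2 for Hspa1b (0.95), Ltbp3 for Hsp90aa1 (0.94), Rhou for Hspa1a (0.93), Stard10 for Cryab (0.90) and Trp63 for Hsph1 (0.87). With 12 libraries and this many genes, high values arise for many pairs, and nothing about shared control is read from them.

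The Flag-Myf6 peak list of myotubes held 12898 peaks, with the authors' fold enrichment from 1.35 to 49.6 and a median of 7.68. Start sites were taken from RefSeq promoter entries for 7 of the 10 genes, and Hspa8, Cryab and Hsp90aa1 were placed by gene span. A peak lay within 10 kb of the start of 1 of 7 members, Hspb1, where 13.0% of 27025 genes have one. It spans chr5:135879906-135880087, 7.83 kb from the start, with a fold enrichment of 9.02. By gene span, a position added after seeing the data, Bag3 held a peak within its span (chr7:128543338-128543464, fold 8.42), and so did Cryab (chr9:50752880-50753019, fold 3.86). The share of all genes with a peak within their span was not computed, so nothing is read from these. The nearest peak to Hsp90aa1 lay 9.63 kb from its gene span and had the highest fold of these, 19.4. Its distance to the start site was not computed, so it is not counted under the 10 kb rule. For Hspb7 the nearest peak lay 36.0 kb from the gene span (40.6 kb from the start), for Dnajb1 23.1 kb and for Hspa8 28.7 kb. Hspa1a and Hspa1b shared a nearest peak at 87.6 and 100.5 kb, and for Hsph1 it was 88.7 kb from the gene span (108 kb from the start). With 1 ChIP library there is no replicate check, and 1 of 7 members is near the share over all genes.

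Of the other promoter windows, those of Hsph1 held a heat shock element of 3 joined units, which starts 37 or 16 bases after the start site, depending on which of its 2 listed starts is used. Such a triple unit is in 0.603% of all windows, and TTCNNGAA in 8.52%. Bag3 held GAANNTTC 43 bases after its start. Dnajb1 held neither motif in its windows, which says only that these letters are not there.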

How the data were processed

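RNA was extracted with Trizol and made into TruSeq RNA v2 libraries, per the labels' protocols. The submitters' processing notes name HISAT2 2.1.0, SAMtools, featureCounts and DESeq2, and Bowtie 1.1.0 and MACS2 2.1.0.20140616, with builds mm10 and GRCm38.p5, without a role or order for each. Strand use and the handling of reads with several matches are not given in the sources used here. The authors deposited RPM per library, that is a gene's reads relative to all reads assigned to genes in the same library. The authors' deposited tables also give for each gene the log2 fold change, WT over KO, its SE, a p-value and a q-value; the sign is turned here. The authors' peak list gives the pileup height, the fold enrichment and the −log10 p-value and q-value of each peak, per the file headers.

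Whole reads were recovered from the RPM steps: 100% of tested values came out whole within 0.1 read. The main test was limma 3.58.1 (R 4.3.3) with a mean-variance trend on log2(RPM + 1). A gene entered a fit when 3 or more of its libraries held 1 RPM or more, and Benjamini-Hochberg adjustment covered all genes of the fit, two-sided, at 0.05. KO against WT used its own 6 libraries, and injury and interaction used all 12. Values were RPM where the plan also provided for counts, so edgeR 4.0.16 on the recovered reads became an alternative. The fits were tested on simulated data. The text names the 10 members, in each KO against WT comparison the pair with the smallest p of each other chaperone list, and the genes most like the members by Pearson's r. The members and lists were chosen with earlier results of these data known.

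Promoter sequences come from RefSeq entries of GRCm38.p6, which were found for 7 of 10 members. That table and the gene spans have the same chromosome sequence as mm10, and peaks were placed on it. Legs were matched by the animal number in the labels for the differences by animal. The main injury and interaction fits had no term for animal, so their p-values and intervals are unpaired. A block on animal, run as an alternative, changed no call of a member. Replicate numbers do not pair WT with KO animals. Same-numbered legs correlated at 0.02 (WT) and 0.39 (KO) in their deviations from the group means. Where nothing says otherwise, p-values measure only the spread between these samples. Alternatives were another pseudocount, no filter, 2 other scalings, edgeR, the replicate block, 1 fit of all libraries, and leaving out each library.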

Additional observations from a re-analysis of the deposited data

How the results depend on the processing

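Of 820 estimates of the 10 members under alternatives, 749 kept their direction and their side of the threshold, 3 passed that had not, and 68 changed sign, none of them in the uninjured comparison of genotypes. The 3 that passed are all Hspb7: uninjured in the replicate block (1.30, adjusted p = 0.0124) and in the authors' deposited table (1.60), and injured without KO replicate 2 (1.92). So the count of members past the threshold was 1 in place of 0 in uninjured muscle with the block and in the authors' deposited table, and 0 to 1 in injured muscle when 1 library was left out. Replicate numbers are shared by WT and KO animals without pairing them: deviations of same-numbered libraries correlated at 0.22 uninjured, with 2 of 3 pairs over 0.1, and at -0.45 injured. The replicate block passed 752 genes uninjured and 0 injured. In uninjured muscle the count over all genes, 35, was 20 with a pseudocount of 0.1, 1 with no filter, 122 with upper quartile scaling, 199 scaled outside mitochondrial genes, 55 with edgeR, 167 with all 12 libraries fitted together and 331 in the authors' deposited table. Leaving out 1 library gave 3 to 84. In injured muscle the count, 34, was 19 with no filter, 56 with all 12 libraries and 225 in the authors' deposited table. Leaving out 1 library gave 0 to 2343, the highest without KO injured replicate 2. Injury in KO muscle gave 0 to 1 gene. A member had a peak near its start in 4 of 7 cases within 50 kb, where 39.9% of genes have one, and in 0 of 7 at a fold enrichment of at least 10, where 3.65% do.

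For the members' estimates that changed sign, the cause was not tested. For KO against WT in injured muscle, Hspa1a was -0.054, -0.015 and -0.0023 and Cryab -0.076, -0.010 and -0.0066 with upper quartile scaling, scaling outside mitochondrial genes and edgeR. Leaving out 1 library gave -0.20 to 0.18 for Hspa1a, -0.072 to 0.21 for Hspa1b, -0.13 to 0.19 for Cryab and -0.18 to 0.50 for Hsp90aa1. For injury in WT muscle, Hspa8 was -0.081, -0.097 and -0.078 and Hsph1 -0.071, -0.087 and -0.075 under those same alternatives. Leaving out 1 library gave -0.088 to 0.10 for Hspa8, -0.082 to 0.086 for Hsph1, -0.40 to 0.025 for Dnajb1, -0.091 to 0.46 for Hspb7, -0.025 to 0.23 for Cryab and -0.040 to 0.80 for Hsp90aa1. For injury in KO muscle, upper quartile scaling gave -0.10 for Hspa1b and -0.22 for Hspb7, edgeR -0.15 and -0.055, and scaling outside mitochondrial genes 0.0072 for Hspa8 and 0.012 for Hsph1. Leaving out 1 library gave -0.25 to 0.076 for Hspa1a, -0.045 to 0.30 for Hspa1b, -0.19 to 0.17 for Hspa8, -0.16 to 0.15 for Hsph1, -0.29 to 0.043 for Hspb1, -0.41 to 0.80 for Hspb7 and -0.26 to 0.062 for Cryab. For the interaction, scaling outside mitochondrial genes gave 0.10 for Hspa8, 0.10 for Hsph1 and 0.038 for Hspb7. Bag3 was -0.080 with upper quartile scaling and -0.097 with edgeR. Leaving out 1 library gave -0.19 to 0.16 for Hspa8, -0.18 to 0.13 for Hsph1, -0.58 to 0.62 for Hspb7 and -0.14 to 0.39 for Bag3.

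Depth limits Hspa1a and Hspa1b most, since WT uninjured replicate 2 holds 1 and 0 of their reads. With 3 animals a genotype, the intervals of Hspb7 and Hsp90aa1 span over 2 log2 units.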
